A study of Mus musculus with 28 samples.

Results

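5-Hydroxymethylcytosine (5hmC) peaks were examined at the mouse genomic regions that held a peak in both wild-type (WT) libraries and in both libraries lacking Tet2 (Tet2KO), but in neither library lacking Tet1 and Tet2 together (DKO). The peaks of the 6 5hmC libraries were merged wherever they overlapped by at least 1 bp on chromosomes 1 to 19, which gave 205075 regions. Of these, 1095 regions (0.534%) followed the pattern and are called DKO-absent regions here. They were chosen by the presence or absence of a 5hmC peak in these 6 lists, so all their 5hmC values are given as a description without a test, and their 5-methylcytosine (5mC) values come from separate libraries that the choice did not use.

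TET enzymes oxidise 5mC to 5hmC and further to bases that DNA repair or replication can replace with unmodified cytosine. Tet1, Tet2 and Tet3 are the 3 family members, TET2 is often mutated in human myeloid and lymphoid blood cancers, and TET1 differs from TET2 in carrying its own CXXC domain, which binds CpG-rich DNA. A site that keeps 5hmC without Tet2 and loses it when Tet1 is missing as well is therefore of interest for both enzymes. The series held no group that lacked Tet1 alone, so losing Tet1 cannot be told apart here from losing both enzymes.

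The cells were LK cells, the usual name for lineage-negative, c-Kit-positive progenitors, purified from bone marrow of C57BL/6 mice aged 6 to 10 weeks. The groups were DKO mice, which lack Tet1 and Tet2, Tet2KO mice, which lack Tet2 and keep Tet1, and WT mice. The labels do not give how the alleles were made, nor whether the 2 replicates of a genotype came from separate mice, so replicate spread may be technical. 5hmC was profiled by hMe-Seal, which labels 5hmC chemically through a sugar and pulls down the labelled DNA (2 libraries per genotype), and 5mC by MeDIP-seq, which enriches methylated DNA with an antibody (2 DKO, 1 Tet2KO and 2 WT libraries).

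Each deposited list held peak positions and a peak score. The 5hmC lists held 128471 to 143960 peaks and covered 98.2 to 111 Mb of the autosomes, and the 5mC lists held 120243 to 147934 peaks and covered 43.1 to 44.8 Mb. The lowest score in a list was 50, which stands for a probability of 1e-05 if the score is the negative log10 p, times 10, that the MACS peak caller usually writes. Read depth is unknown, so a region without a peak may hold 5hmC below the calling threshold, and less 5hmC per cell cannot be told apart from fewer cells that carry it. With no reads or marker genes in these lists, the LK identity of the cells was not checked. Positions below are in genome build mm9, counted from 1.

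DKO-absent regions were a small minority of the sites that WT and Tet2KO cells shared. A peak was present in both WT and both Tet2KO libraries in 67234 regions, and of these 1.63% were called in neither DKO library, 4615 regions (6.86%) in 1 DKO library and 61524 regions (91.5%) in both. The same question asked of the other genotypes gave larger numbers. Peaks of both DKO and both WT libraries were missing from both Tet2KO libraries in 1640 of 73040 regions (2.25%), although those DKO cells lacked Tet2 too. Peaks shared by both DKO and both Tet2KO libraries were missing from both WT libraries, which have both enzymes, in 2665 of 71490 regions (3.73%). These 3 shares rest on the same 6 lists and were not tested against each other.

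The weakest of the 4 peaks in a DKO-absent region usually lay just above the calling threshold. Its score had a median of 56.4 over the 1095 regions, against 99.56 where both DKO libraries also had a peak. It was under 60 in 732 of the DKO-absent regions (66.8%), at least 100 in 5 of them, and at most 117.8. Of the regions shared by WT and Tet2KO, 24694 (36.7%) had a weakest score above that maximum. Low weakest scores were not particular to DKO-absent regions. Their median was 58.4 in regions missing from Tet2KO and 58.6 in regions missing from WT.

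The share without a DKO peak fell steadily along the weakest score. It was 7.50% (466 of 6214 regions) for scores of 50 to 55, 4.92% (266 of 5403) for 55 to 60 and 2.80% (233 of 8330) for 60 to 70. It was 1.13% (75 of 6610) for 70 to 80, 0.504% (50 of 9912) for 80 to 100 and 0.0374% (5 of 13356) for 100 to 150. Above that it was 0 of 6700 regions for 150 to 200 and 0 of 10709 regions for 200 and more, where a count of 0 allows a share of up to 0.0448% and 0.0280%, counting error only. The same decline held for regions missing from Tet2KO (8.99% at 50 to 55 and 0.248% at 100 to 150) and for regions missing from WT (14.2% and 0.408%).

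**Figure D1:**
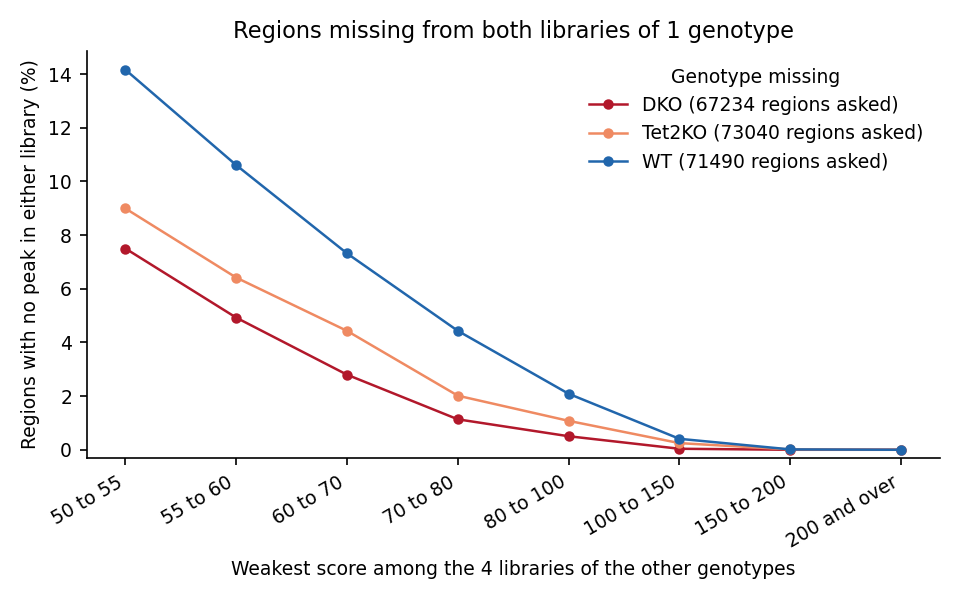
Percent of regions (y axis) that had a 5hmC peak in all 4 libraries of 2 genotypes but in neither library of the remaining genotype, by the weakest score of the 4 peaks (x axis, classes of score), with 1 line per genotype that lacked the peak. The share missing from DKO starts at 7.50% in the class of 50 to 55 and reaches 0 of 6700 regions at 150 to 200.

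Just outside the rule lay the 4615 regions with a peak in 1 DKO library, 2293 of them in DKO replicate 1 and 2322 in DKO replicate 2. Their single DKO peak had a median score of 76.75 (quartiles 63.74 and 98.07) and scored under 60 in 888 regions (19.2%). This DKO peak shared a median of 593 bp with the WT or Tet2KO peaks, and in only 1 of the 4615 regions was the shared stretch 50 bp or less. Where both DKO libraries had a peak, the weaker of the 2 scored 136 at the median. Touching ends alone thus put few regions outside the rule.

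Raising the score required of every peak replaced nearly all DKO-absent regions by others. With peaks of at least 100, 421 regions followed the pattern, but 416 of them (98.8%) held a weaker deposited DKO peak, and 354 of them held one in both DKO libraries. The 5 without any DKO peak were the 5 regions counted above. With peaks of at least 200, 129 regions followed the pattern and all 129 held weaker peaks in both DKO libraries.

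The peaks in DKO-absent regions ranked low in the lists of all 4 libraries that had them. A peak's rank is given here as the percentile of its score among all peaks of its library, and a region with several peaks takes the highest. The median rank was 31.3 in Tet2KO replicate 1, 29.0 in Tet2KO replicate 2, 33.3 in WT replicate 1 and 34.4 in WT replicate 2, so the Tet2KO medians averaged 30.2 ± 1.61 and the WT medians 33.9 ± 0.755 (SD, n = 2 each). The median scores were 71.14 and 70.48 in the Tet2KO libraries, against 73.5 and 74.16 in the WT libraries. The strongest single peaks reached 282.75 and 283.17 in Tet2KO and 200.02 and 241.64 in WT. Regions missing from 1 of the other genotypes also ranked low in the 4 libraries that held them. Median ranks were 31.4 to 38.3 for regions missing from Tet2KO and 34.6 to 39.6 for regions missing from WT.

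Few regions were strong in every library. In 11 of the 1095 regions (1.00%) all 4 peaks ranked above 50, while in 469 regions (42.8%) all 4 ranked at 50 or below. Among the 61524 regions with a peak in all 6 libraries, all 4 of these peaks ranked above 50 in 53.6% and at 50 or below in 3.68%. The 4 ranks of a DKO-absent region spanned 37.2 points at the median, against 26.0 points in the regions of all 6 libraries, so a typical member paired a moderate peak in 1 library with a marginal one in another.

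**Figure D2:**
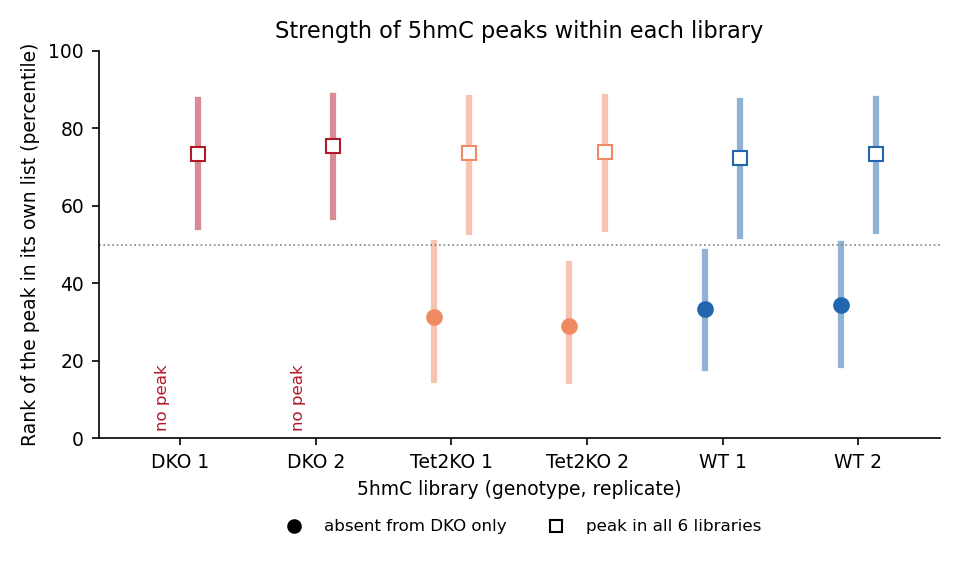
Rank of the 5hmC peak within its own library's list (y axis, percentile of score) for each of the 6 libraries (x axis), as the median (marker) and the 25th to 75th percentile over regions (bar), for DKO-absent regions (filled circles) and for regions with a peak in all 6 libraries (open squares). The DKO-absent regions have medians of 29.0 to 34.4 in the 4 libraries that hold them and no DKO peak by the rule.

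Between the genotypes that kept the peak, Tet2KO ranks were more often below WT ranks than above them. In 164 of the 1095 regions (15.0%) both Tet2KO peaks ranked above both WT peaks, where the same held for 20.7% of all 67234 regions with the 4 peaks. In 228 regions (20.8%) both Tet2KO peaks ranked below both WT peaks, against 17.7% of all those regions. The ranks of the genotypes overlapped in 703 regions (64.2%), and the median difference of the mean ranks, Tet2KO minus WT, was -2.60 points. Because the rule needs all 4 peaks and no DKO peak, these figures were not tested. The called peaks were also narrower in Tet2KO, with medians of 552 and 523 bp, than in WT, with 635 and 614 bp. This was also true of the libraries as a whole, where all peaks had medians of 633 and 598 bp in Tet2KO and 728 and 681 bp in WT.

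A DKO-absent region was usually a single peak and not a cluster. Its width ranged from 336 to 2183 bp with a median of 752 bp (quartiles 641 and 976.5), close to the 723 bp of all merged regions and below the 1182 bp of regions in all 6 libraries. In 1042 regions (95.2%) each of the 4 libraries contributed exactly 1 peak. All 4 libraries covered a common stretch in 1059 regions, with a median of 424 bp, and 36 regions had no base covered by all 4.

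The region with the highest weakest score lay on chromosome 19 at 29304289 to 29305265 (977 bp). Its peaks scored 137.33 and 126.83 in Tet2KO and 145.25 and 117.8 in WT, and the nearest DKO peak began 227 bp away. It held a 5mC peak in all 5 MeDIP libraries, which covered 46.2% and 64.2% of it in DKO, 47.1% in Tet2KO and 48.7% and 51.5% in WT. The 5mC coverage of the genotypes therefore overlapped at this region.

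An isolated example lay on chromosome 11 at 79913771 to 79915268 (1498 bp), with scores of 116.16 and 267.32 in Tet2KO and 138.82 and 120.06 in WT. The nearest DKO peak was 5214 bp away, and no library of any genotype had another 5hmC peak within 5 kb on either side. On the same chromosome, the region at 79101719 to 79102452 scored 154.55 and 113.07 in Tet2KO and 140.03 and 153.41 in WT, with a DKO peak 333 bp away. It held no 5mC peak in any library.

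The remaining 3 of the 6 strongest regions likewise lacked 5mC peaks in all 5 libraries, whereas the isolated region above had one in DKO replicate 1 (14.5% of its length). Chromosome 10 at 42250189 to 42251549 scored 132.42 and 110.07 in Tet2KO and 145.02 and 166.13 in WT, and chromosome 10 at 20862802 to 20863856 scored 151.69 and 98.76 in Tet2KO and 124.29 and 137.76 in WT. DKO peaks lay 431 and 291 bp from these regions. Chromosome 17 at 85321071 to 85322063 scored 128.73 and 126.97 in Tet2KO, above the 106.51 and 112.52 in WT, and its nearest DKO peak was 10091 bp away. Of the 6 regions, this was the 1 in which both Tet2KO scores exceeded both WT scores, the region from 42250189 was the 1 in which both lay below, and the scores overlapped in the other 4.

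The widest regions showed how merging shaped some members. On chromosome 5 at 39178956 to 39181138 (2183 bp), peaks of 54.65 and 61.63 in Tet2KO and 69.73 and 56.86 in WT were joined end to end, with no base covered by all 4 libraries. On chromosome 2 at 165137810 to 165139968 (2159 bp), both Tet2KO scores were low (66.81 and 58.3) and both WT scores were high (134.88 and 171.54), with a 5mC peak in all 5 libraries. On chromosome 15 at 82035249 to 82037351 (2103 bp), scores were 60.17 and 106.12 in Tet2KO and 92.71 and 164.8 in WT, and a DKO peak began 9 bp beyond the region.

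DKO peaks were often close by. The nearest DKO peak of either library lay a median of 1356 bp from a DKO-absent region (quartiles 486.5 and 3487), within 100 bp in 58 regions (5.30%) and at 1000 bp or less in 462 regions (42.2%). The smallest distances were 2 bp at chromosome 10 from 60904570 to 60905645, where the peaks scored 84.98 and 50.48 in Tet2KO and 64.86 and 60.35 in WT, and 4 bp at chromosome 11 from 6293521 to 6294109. In 94 regions (8.58%) no DKO peak lay within 10 kb. The 2 most distant, chosen after their values were seen, were on chromosome 9: at 4383610 to 4384159 the nearest DKO peak was 918733 bp away, and at 86917545 to 86918870 it was 171513 bp away. Neither had a 5hmC peak of any library in the 5 kb on each side, so both were isolated in every genotype.

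The sequence around the regions held peaks in every genotype, DKO included. Measured library by library, the next peak outside the region was a median of 1794 and 1739 bp away in DKO, 1649 and 1582 bp in Tet2KO and 1641 and 1622 bp in WT. Within 5 kb on each side, 5hmC peaks covered 14.2 ± 0.580% of the sequence in DKO, 13.8 ± 0.224% in Tet2KO and 15.2 ± 0.029% in WT (mean ± SD, n = 2 each). The DKO libraries, at 14.6% and 13.8%, overlapped the Tet2KO libraries at 14.0% and 13.7%, and both lay below the WT libraries at 15.2% each. The order of DKO and Tet2KO turned with a narrower flank of 1 kb, where coverage was 9.74% in DKO, 9.82% in Tet2KO and 11.0% in WT. Within 5 kb of all merged regions, coverage was 15.6 ± 0.624% in DKO, 14.3 ± 0.329% in Tet2KO and 16.1 ± 0.255% in WT. There both DKO libraries (16.0% and 15.1%) lay above both Tet2KO libraries (14.6% and 14.1%). Beside regions with a peak in all 6 libraries coverage was higher in every genotype, at 22.0 ± 1.05% in DKO, 20.2 ± 0.552% in Tet2KO and 22.7 ± 0.390% in WT.

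**Figure D3:**
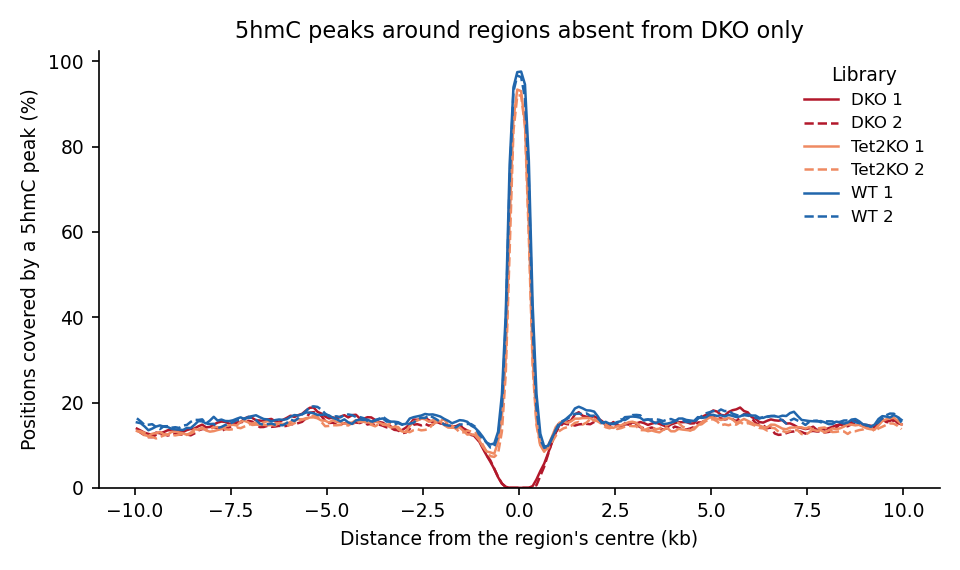
Percent of DKO-absent regions covered by a 5hmC peak (y axis) against the distance from the region's centre in kb (x axis), 1 line per library. At the centre the Tet2KO libraries cover 93.2% and 92.0% of the regions, the WT libraries 97.6% and 96.5% and the DKO libraries 0% by the rule. At 9 to 10 kb the DKO and Tet2KO libraries lie between 13.4% and 14.2% and the WT libraries at 15.2% and 15.3%.

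The DKO-absent regions were spread over all autosomes. Chromosome 2 held 78, chromosome 1 held 77, chromosome 5 held 75 and chromosome 11 held 73, while chromosomes 14 and 18 held 35 each. Relative to the regions with peaks in both WT and both Tet2KO libraries, the density was highest on chromosome 13 (62 regions, 2.08 per 100), chromosome 9 (69 regions, 1.99 per 100) and chromosome 3 (60 regions, 1.94 per 100). It was lowest on chromosome 15 (39 regions, 1.23 per 100), chromosome 4 (55 regions, 1.26 per 100) and chromosome 11 (73 regions, 1.33 per 100).

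Most DKO-absent regions were the only 1 in their 100 kb bin. The spacing of other 5hmC regions was not computed, so whether members lay closer together or farther apart than those is not known. The median distance to the next DKO-absent region was 332742 bp, 33 regions had another within 10 kb and 275 regions (25.1%) had another within 100 kb. Of the 1010 bins of 100 kb that held any, 931 held 1, 73 held 2 and 6 held 3. The 3 members spanned 5252 bp in 1 of these 6 bins and 31696 to 63950 bp in the other 5. The narrow group lay on chromosome 10 at 20986826 to 20987608, 20988395 to 20989372 and 20991430 to 20992077, among 40 merged regions of its bin. The first scored 61.19 and 87.29 in Tet2KO and 60.25 and 69.46 in WT, the second 101.48 and 62.92 in Tet2KO and 112.55 and 75.98 in WT, and the third 115.02 and 55.05 in Tet2KO and 51.75 and 82.85 in WT. DKO peaks lay 1247, 323 and 1381 bp from them, and none of the 3 held a 5mC peak. The 3 members of a bin on chromosome 1 from 95600001 to 95700000 and the 3 of a bin on chromosome 4 from 97800001 to 97900000 spanned 31696 and 63151 bp, and 1 on each chromosome overlapped a 5mC peak.

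Turning to 5mC, which the rule did not use, DKO-absent regions carried MeDIP peaks at shares that overlapped between DKO and WT. The share of the 1095 regions that overlapped a 5mC peak was 22.8% and 19.4% in DKO, 22.4% in the 1 Tet2KO library and, in WT, 18.8% and 21.9%. The DKO and WT values overlapped, with means of 21.1 ± 2.45% in DKO and 20.4 ± 2.20% in WT (SD, n = 2 each), a difference of 0.731 points. An exact two-sided permutation test over the libraries gave p = 0.667, and the smallest p this design allows is 0.333.

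The libraries differed in how much 5mC they called everywhere, so the shares were also set against all other 5hmC regions. These other regions overlapped a 5mC peak in 21.4% and 18.8% of cases in DKO, 20.5% in Tet2KO and 18.3% and 19.998% in WT. The excess in DKO-absent regions was 0.991 ± 0.613 points in DKO, 1.86 points in Tet2KO and 1.22 ± 0.991 points in WT (SD, n = 2 for DKO and WT). The excess differed by -0.229 points between DKO and WT (exact two-sided permutation p = 1). A rise of 5mC peaks over these regions as a group was not detectable with 2 libraries each.

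**Figure D4:**
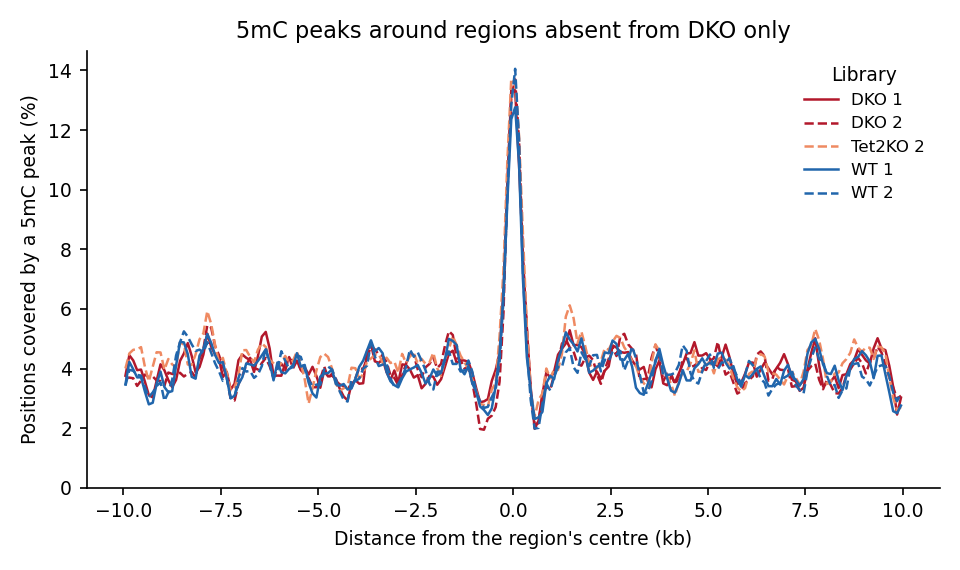
Percent of DKO-absent regions covered by a 5mC peak (y axis) against the distance from the region's centre in kb (x axis), 1 line per MeDIP library. At the centre the DKO libraries cover 13.3% and 13.4%, the Tet2KO library 13.6% and the WT libraries 12.6% and 13.4%, and 9 to 10 kb away all 5 lie between 3.57% and 4.15%.

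The other classes of 5hmC regions differed more from one another in 5mC than the genotypes did. Regions missing from Tet2KO overlapped 5mC peaks in 30.9% and 27.0% of cases in DKO, 29.6% in Tet2KO and 27.9% and 29.5% in WT. Regions missing from WT overlapped them in 6.83% and 5.74% of cases in DKO, 6.30% in Tet2KO and 5.29% and 6.19% in WT. Regions with a peak in all 6 libraries lay at 32.9% and 29.1% in DKO, 31.3% in Tet2KO and 27.5% and 30.2% in WT, and these are wider regions. Within 1 range of width, 600 to 800 bp, the median over the 5 libraries was 19.2% for DKO-absent regions and 18.0% for regions in all 6 libraries. It was 16.9% and 12.1% under 600 bp, 21.6% and 23.1% from 800 to 1000 bp, and 27.8% and 36.1% from 1000 bp up. That last range is open and does not match width, since the widest region had 2183 bp among DKO-absent regions and 22710 bp among the others. Within 1 range of weakest score, 50 to 60, the DKO-absent regions lay at 21.0% and 17.8% in DKO, 21.9% in Tet2KO and 18.2% and 20.4% in WT. Regions of the same weakest score with a peak in both DKO libraries lay at 21.3% and 19.03% in DKO, 20.9% in Tet2KO and 18.2% and 20.5% in WT, so the ranges over the 5 libraries overlapped in this class. They also overlapped for weakest scores of 60 to 80, with 18.2% to 24.7% of 308 DKO-absent regions and 20.1% to 24.1% of regions with both DKO peaks. For scores of 80 to 100 they did not: 50 DKO-absent regions lay at 36% and 32% in DKO, 36% in Tet2KO and 32% and 38% in WT, and regions with both DKO peaks at 27.6% and 24.4% in DKO, 25.9% in Tet2KO and 23.1% and 24.9% in WT. All 3 genotypes were higher in this small class, and the difference was not tested.

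Most DKO-absent regions had no 5mC peak at all. No MeDIP library had a peak in 746 regions (68.1%), 1 to 4 libraries had one in 211 regions (19.3%) and all 5 had one in 138 regions (12.6%). Over all 5hmC regions these shares were 70.6%, 17.0% and 12.4%. Median widths were 809.5 bp with 5mC in all 5 libraries, 817 bp with 5mC in 1 to 4 and 733.5 bp with none.

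The 5hmC ranks of Tet2KO and WT stood farther apart where 5mC peaks were present. In the 138 regions with 5mC in all 5 libraries, median 5hmC ranks were 28.7 and 28.8 in Tet2KO and 41.5 and 40.6 in WT, and the median difference, Tet2KO minus WT, was -9.12 points. Both Tet2KO ranks lay below both WT ranks in 39 of them (28.3%) and above in 10 (7.25%). Over all 13050 regions with both WT and both Tet2KO peaks and 5mC in all 5 libraries, these shares were 30.2% and 10.7%. In the 211 regions with 5mC in some libraries, ranks were 29.7 and 29.4 in Tet2KO and 34.5 and 38.8 in WT, with a median difference of -5.10 points. In the 746 regions without 5mC, ranks were 31.9 and 29.0 in Tet2KO and 30.4 and 32.2 in WT, and the median difference was -0.06 points. Here both Tet2KO ranks lay below both WT ranks in 137 regions (18.4%) and above in 132 regions (17.7%). Over all 38853 regions with both WT and both Tet2KO peaks but no 5mC, these shares were 12.7% and 25.4%.

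The same order by 5mC was present in the other regions. Over all 67234 regions with both WT and both Tet2KO peaks, the median difference was -3.07 points with 5mC in all 5 libraries, -0.83 with 5mC in some and 2.55 with none. Among regions with a peak in all 6 libraries and a weakest score of 50 to 100, it was -12.7, -4.59 and 5.88 points. The order was thus shared with regions that kept 5hmC in DKO. The level differed by class and was not tested. Without 5mC the median difference was 5.88 points in these regions and -0.06 points in DKO-absent regions. With 5mC in some libraries it was -4.59 and -5.10 points, and with 5mC in all 5 it was -12.7 and -9.12 points. The 2 sets also differed in rank. Without 5mC, median ranks were 48.9 to 56.4 in these regions and 29.0 to 32.2 in DKO-absent regions, which the rule chose from these same lists. Ranks within a list say nothing of the total 5hmC of a library.

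**Figure D5:**
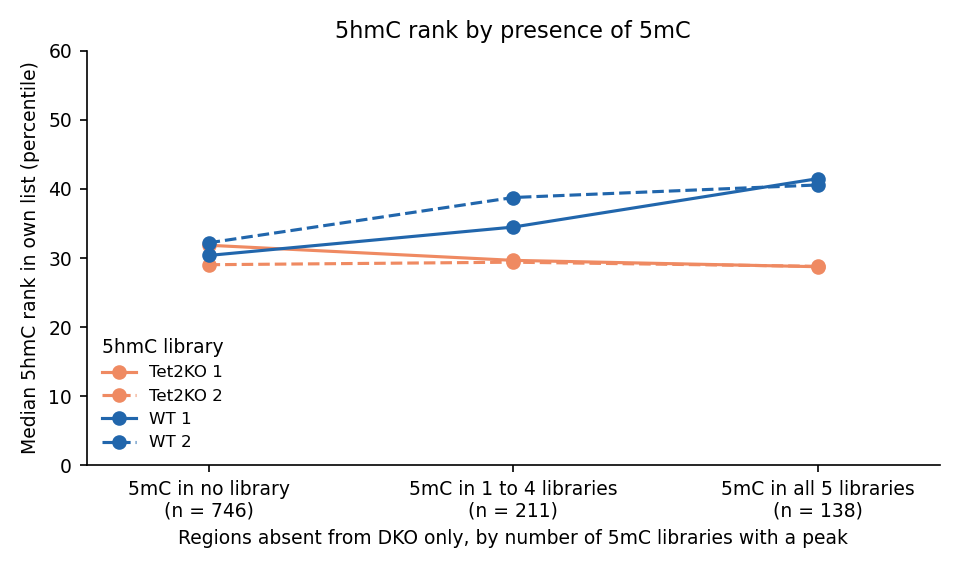
Median 5hmC rank of DKO-absent regions within each library's list (y axis, percentile) for the 2 Tet2KO and 2 WT libraries, by the number of MeDIP libraries with a 5mC peak in the region (x axis). With 5mC in all 5 libraries the Tet2KO medians are 28.7 and 28.8 and the WT medians 41.5 and 40.6, and without 5mC the 4 medians lie between 29.0 and 32.2.

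Single regions with a change in 5mC peaks were few. In 12 DKO-absent regions (1.10%) each DKO library but no WT library had a 5mC peak, where 0.857% of all 5hmC regions showed this gain. The reverse, a peak in each WT library but no DKO library, held for 8 DKO-absent regions (0.731%), where 0.511% of all 5hmC regions showed this loss. Both shares lay near the level of all regions. Of the 12 regions with a gain, 6 also had the 5mC peak in Tet2KO, and of the 8 with a loss, 6 kept it in Tet2KO.

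The gain with the smallest p lay on chromosome 8 at 26644401 to 26645306, where 5mC peaks covered 40.8% and 47.5% of the region in DKO, 51.2% in Tet2KO and 0% in both WT libraries. Its 5hmC peaks scored 64.08 and 155.59 in Tet2KO and 63.4 and 109.11 in WT. On chromosome 1 at 46916178 to 46916846, 5mC covered 39.2% and 35.6% in DKO and 0% in Tet2KO and in both WT libraries, so that Tet2KO here matched WT and not DKO. The loss with the smallest p lay on chromosome 4 at 129305755 to 129306435, with 0% in both DKO libraries, 54.0% in Tet2KO and 45.2% and 56.1% in WT. On chromosome 17 at 46878046 to 46879367, coverage was 0% in both DKO libraries, 44.6% in Tet2KO and 36.5% and 30.9% in WT. These 4 regions had no overlap between DKO and WT, and they were picked for that.

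None of these gains or losses passed a test over all regions. The fraction of each region covered by 5mC peaks was compared between genotypes with limma over 46553 regions that had a 5mC peak in at least 2 libraries, 273 of them DKO-absent. At an adjusted p under 0.05, limma called 0 regions and 0 DKO-absent regions for DKO against WT, for Tet2KO against WT and for DKO against Tet2KO, so percent called was 0 in each. For DKO against WT, 23 DKO-absent regions (8.42%) had an unadjusted p under 0.05, 13 with higher and 10 with lower coverage in DKO, beside 3351 (7.20%) of all regions tested, and the smallest adjusted p was 0.192 in both sets. With a single Tet2KO library, only the direction is given for its 2 contrasts. Coverage was higher in Tet2KO than in WT in 53.8% of the 273 DKO-absent regions and in 54.5% of all regions tested. It was higher in DKO than in Tet2KO in 47.6% of the DKO-absent regions and in 47.3% of all regions tested. Coverage was higher in DKO than in WT in 147 of the 273 DKO-absent regions (53.8%) and in 54.0% of all tested regions.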

How the data were processed

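The members and the comparisons were chosen with earlier results of these data known. The authors deposited 1 peak list per library, with positions and a score per peak. Per the submitters' processing notes, which give no role or order, the processing named MACS 1.4.2, Bowtie 0.12.9, CASAVA 1.4, Cuffdiff 2.2.1, TopHat2 2.0.8 and build mm9. Peak names in the deposited lists carry MACS's name. The scores are the authors' own and were used only to rank or filter peaks within a list. The sources used here give no control library, treatment of duplicate reads or depth. A deeper library can have more peaks called, so presence of a peak depends on depth as well as on 5hmC. The 17 RNA-seq samples were not analysed here, and neither were peaks outside chromosomes 1 to 19 (3344 in the 5hmC lists, 6916 in the 5mC lists).

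Samples were grouped by the genotype in the labels. The single 5mC Tet2KO library is number 2 by its title, while its file is numbered 1. The title was followed. Peaks were merged and compared in Python 3.11.15 with pandas 2.3.3 and numpy 2.4.6. Shares of regions on 5mC peaks (overlap of at least 1 bp) were compared over libraries by exact permutation. The covered fraction, after an arcsine square root transformation, was tested with limma 3.58.1 (R 4.3.3, trended variance, Benjamini-Hochberg adjustment) on all 5 libraries in 1 fit with 2 residual degrees of freedom. The lone Tet2KO library was assumed to vary like the other groups. The procedure was tested on simulated data. Alternatives were score minimums, equal list lengths, other merging and overlap rules, other flanks, another filter and transformation, a replicate block and leaving out each library.

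Regions named are the 6 with the highest weakest score, the 3 widest, bins of 100 kb with most members, those closest to a DKO peak, and any past the limma threshold (none). Others named are the most distant regions and the 5mC gains and losses with the smallest p, chosen after their values were seen. An mm9 genome and annotation were not used here, so regions are given by position alone, without genes or sequence.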

Additional observations from a re-analysis of the deposited data

How the results depend on the processing

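The number of DKO-absent regions, 1095, changed most with the score cutoff and with the number of libraries in the rule. It was 421 with scores of at least 100 and 129 with scores of at least 200 (5 and 0 of the original regions remained), and 634 when a DKO peak less than 1000 bp away also counted against a region (1 region had its nearest DKO peak at exactly 1000 bp). Leaving out 1 library gave 1763 to 3432 regions, among which 1085 to 1095 of the original remained. Each library left out removes 1 condition of the rule, so a higher count that keeps nearly all original regions follows from the rule itself. Equal list lengths gave 1032 regions, of which 804 of the original remained, and a 50 bp overlap, a 500 bp gap or a common base gave 1115, 857 and 1059. The difference in the share on 5mC, DKO minus WT, ranged from -1.005 to 2.47 points when 1 library was left out, and turned negative without DKO replicate 1 (-1.005) and without WT replicate 1 (-0.822). The difference in excess over other regions was 0.262 points with 5mC scores of at least 100 and -0.930 to 0.472 with 1 library left out, turning positive without DKO replicate 2 (0.205) and without WT replicate 2 (0.472). Members with a 5mC gain numbered 5 (0.457%) with 5mC scores of at least 100, against 0.441% of all 5hmC regions. With 1 library left out, where the call has 1 condition fewer, they numbered 24 to 41 (2.19% to 3.74%), against 1.68% to 3.31% of all. Members with a loss numbered 1 (0.0913%, all regions 0.256%) with scores of at least 100 and 13 (1.19%, all regions 0.835%) with 1 kb added. With 1 library left out they numbered 11 to 42 (1.00% to 3.84%), against 1.04% to 2.38% of all regions.

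In limma, calls appeared with regions having a 5mC peak in at least 1 library (3397 regions and 16 members for Tet2KO against WT, 3424 and 18 for DKO against Tet2KO) and with regions whose covered fraction averaged 0.05 or more (1750 and 10, 1753 and 9). The first filter tested 60206 regions, 349 of them members, and the second tested 51905 regions, 312 of them members. These filters admit regions with a peak in the lone Tet2KO library alone, which have no residual spread. The calls are not counted here, since Tet2KO had a single library, and how many of them lay in such regions was not examined. DKO against WT had 0 calls under each alternative run. Around members, 5hmC coverage in DKO minus Tet2KO was 0.371 points with flanks of 5 kb and -0.077 with flanks of 1 kb. Titles give DKO and WT 5mC libraries the same numbers, but nothing says that they pair. Deviations of same-numbered libraries had a correlation of -0.0437 over 46553 regions. With the replicate block the difference in share was 0.731 points, 4.02 within number 1 and -2.56 within number 2, the difference in excess was -0.229 points, and limma called 0 regions. Positions relative to genes were planned and not run. Precision is limited by 2 libraries per genotype and by unknown depth.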
